A study of Mus musculus with 6 samples.

Results

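The cells described here are mature neutrophils of the mouse lung that carried few transcripts of the chemokine genes Ccl3 and Ccl4. They were chosen from the values themselves. A barcode was kept with at least 200 genes, at most 10% mitochondrial UMIs, at least 5% of UMIs from S100a8 and S100a9, and at least 2 UMIs from Csf3r, Cxcr2 and Ly6g. It also had no UMI of Cd79a or Cd3e, at most 3 UMIs of the C1q genes, under 0.5% of UMIs from the granule genes Ltf, Ngp and Camp, and under 0.2% from Ccl3 and Ccl4. This rule took 3844 of 64428 barcodes, and these are called low-Ccl3/Ccl4 neutrophils below. Mature neutrophils that passed every limit but the last numbered 8910 and are called high-Ccl3/Ccl4 neutrophils.

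The study profiled lung cells positively selected for the leukocyte antigen CD45 by droplet single-cell RNA sequencing (10x Genomics), after enzymatic digestion and red cell lysis that all libraries shared. There were 2 libraries of NOS1 KO mice (labelled NOS1-/-) given 10 mg/kg LPS intraperitoneally for 4 h, 2 libraries of wild-type (WT, strain written C65BL6) mice given the same LPS, 1 library of NOS1 KO mice given vehicle and 1 library of WT mice given vehicle. The comparisons therefore ask what LPS did to these cells, whether KO and WT cells differed under LPS, and whether the response to LPS differed by genotype. Only the LPS groups were replicated, so spread between libraries could be estimated from their pairs alone and not for vehicle. Age, sex and the number of animals per library are not given in the sources used here, so p-values below measure the spread between libraries, which may be technical.

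Neutrophils are short-lived granulocytes that leave the bone marrow in large numbers when bacterial products reach the blood, and the lung capillaries hold many of them. LPS, the outer-membrane lipid of Gram-negative bacteria, is sensed by TLR4 with CD14 and MD-2 and drives NF-kB target genes. A second branch through TRIF induces type I interferon, whose receptor signals through JAK kinases to the interferon-stimulated genes. Ccl3 and Ccl4 encode chemokines that activated neutrophils release and that attract monocytes and lymphocytes. NOS1 is the neuronal form of nitric oxide synthase. SOCS1, in the title of the series, is a feedback inhibitor of cytokine signalling.

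The promoters of the interferon-stimulated genes are known for the interferon-stimulated response element, and 4 of them are shown because this list moved together in the results below. The letters GAAANNGAA were searched on both strands from 250 bases before to 50 bases after each RefSeq transcript start (build GRCm38.p6). They were present for 14 of the 26 interferon-stimulated genes that matched by symbol (53.8%), for 2638 of 27025 genes in the table (9.76%) and for 723 of the 7725 genes tested below that matched (9.36%). The printed windows are the 250 bases before the start, read 5′ to 3′ in the direction of transcription, with each match in capitals. They are chr4:156200819-156201068 on the minus strand for Isg15, chr19:34640639-34640888 on the plus strand for Ifit1, chr19:34583279-34583528 on the plus strand for Ifit3 and chr3:142620413-142620662 on the plus strand for Gbp2.
Isg15: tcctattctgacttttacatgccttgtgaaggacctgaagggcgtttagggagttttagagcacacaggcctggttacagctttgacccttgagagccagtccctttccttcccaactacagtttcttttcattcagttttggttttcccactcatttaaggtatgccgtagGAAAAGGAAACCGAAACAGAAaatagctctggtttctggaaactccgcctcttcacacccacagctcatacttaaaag
Ifit1: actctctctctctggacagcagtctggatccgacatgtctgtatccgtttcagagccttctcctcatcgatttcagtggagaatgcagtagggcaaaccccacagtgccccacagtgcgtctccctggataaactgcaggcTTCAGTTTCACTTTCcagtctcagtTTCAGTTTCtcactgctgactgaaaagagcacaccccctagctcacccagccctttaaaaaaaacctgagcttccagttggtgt
Ifit3: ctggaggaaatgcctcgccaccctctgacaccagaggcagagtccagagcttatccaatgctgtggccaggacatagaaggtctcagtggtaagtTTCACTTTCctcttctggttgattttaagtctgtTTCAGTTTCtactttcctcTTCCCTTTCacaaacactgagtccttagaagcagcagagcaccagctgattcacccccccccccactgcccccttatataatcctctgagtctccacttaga
Gbp2: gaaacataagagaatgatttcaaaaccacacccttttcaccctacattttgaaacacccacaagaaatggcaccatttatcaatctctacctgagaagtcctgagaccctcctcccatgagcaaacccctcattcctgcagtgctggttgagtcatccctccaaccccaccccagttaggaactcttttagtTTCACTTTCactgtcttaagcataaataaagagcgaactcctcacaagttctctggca
Isg15, Ifit1 and Ifit3 each hold 3 matches and Gbp2 holds 1. Matches overlap in Isg15, where all 3 form 1 run on the printed strand, and in Ifit1, where 2 form 1 run on the opposite strand. A match is a description of these letters and not evidence of binding.

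The neutrophil part of the label was checked against markers outside the Ccl3 and Ccl4 limit, and maturity was not checked with them. S100a8, S100a9, Csf3r, Cxcr2, Retnlg and G0s2 summed to 184479 to 186806 CPM (each gene's share of a library's UMIs, on the usual CPM scale) in the low-Ccl3/Ccl4 cells of the KO LPS libraries, 175313 to 185271 CPM in WT LPS, 144639 CPM in KO vehicle and 130035 CPM in WT vehicle, with none of the 6 at 0 in any library. The first 4 were part of the rule. Retnlg, a resistin-like protein of granulocytes that was not, reached 14226 and 15788 CPM in the KO LPS libraries, 10074 and 11768 CPM in the WT LPS libraries, 7866 CPM with vehicle in KO and 5118 CPM with vehicle in WT. Unlike the sums, these Retnlg values carry the trimmed-mean (TMM) scaling described below. Unscaled, it held 97528 of 7512053 UMIs and 53270 of 3833483 in KO LPS, and 30988 of 3612209 and 31463 of 3384098 in WT LPS. It held 8231 of 809289 in KO vehicle and 4294 of 586187 in WT vehicle. By these unscaled shares KO vehicle lay above both WT LPS libraries. The word mature rests on the granule limit. A list of 8 immature neutrophil markers, which includes Ltf, Ngp and Camp of the rule, was higher with LPS. It summed to 2221.5 and 1946.5 CPM in KO LPS, 2756 and 2654 CPM in WT LPS, 309 CPM in KO vehicle and 208 CPM in WT vehicle. The cells yielded 3384098 to 7512053 UMIs per LPS library, and 809289 in KO vehicle and 586187 in WT vehicle, so rare transcripts were measured least well with vehicle. Median UMIs per cell were 4962.5 and 3647 in KO LPS, 5609 and 4109 in WT LPS, 2279.5 in KO vehicle and 1542.5 in WT vehicle. Those of B cells, used below as a comparison, were 3289 and 2501 in KO LPS, 5117 and 3644 in WT LPS, 3057.5 in KO vehicle and 2172 in WT vehicle. Between 4 and 17 of the cells per library had a barcode sequence also found in another library. Nos1 gave no UMI in these cells in any library, and 4 and 4 UMIs over all barcodes in KO LPS, 0 and 1 in WT LPS, 5 in KO vehicle and 2 in WT vehicle, which does not check the deletion.

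The libraries differed in sex-linked transcripts, which the labels do not mention. Y-linked transcripts (Ddx3y, Eif2s3y, Kdm5d, Uty) without Xist were found in 374 and 224 low-Ccl3/Ccl4 cells of the KO LPS libraries (32.7% and 27.0%), 1 and 0 in WT LPS, 0 of 342 in KO vehicle and 79 in WT vehicle (21.0%). Xist, the RNA of the inactive X chromosome, without Y-linked transcripts was found in 71 and 50 cells in KO LPS (6.21% and 6.03%), 145 and 165 in WT LPS (29.5% and 24.96%), 56 in KO vehicle (16.4%) and 0 of 376 in WT vehicle. The exact 95% upper bounds on the shares of 0 are 0.557% in WT LPS replicate 2 and 1.07% in KO vehicle for Y-linked transcripts, and 0.976% in WT vehicle for Xist. Among B cells the KO LPS libraries held both kinds too, with Xist alone in 60.9% and 60.8% and Y-linked transcripts alone in 6.81% and 6.85%. Neither mark was seen in 57.8% and 64.7% of the low-Ccl3/Ccl4 cells in KO LPS, 70.3% and 75.04% in WT LPS, 83.6% in KO vehicle and 79.0% in WT vehicle. Both marks together were found in 38 and 19 low-Ccl3/Ccl4 cells of KO LPS (3.32% and 2.29%), where 109 and 69 cells held Xist at all. Among B cells of KO LPS both were found in 7.20% and 5.07%. The part of free RNA or doublets in the Xist of KO LPS cells was not tested. Among cells with a mark, most in KO LPS were Y-marked and nearly all in WT LPS were Xist-marked, so for all cells together genotype and sex mark cannot be told apart. Values for Xist-marked cells of both genotypes are given beside the KO results.

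**Figure D1:**
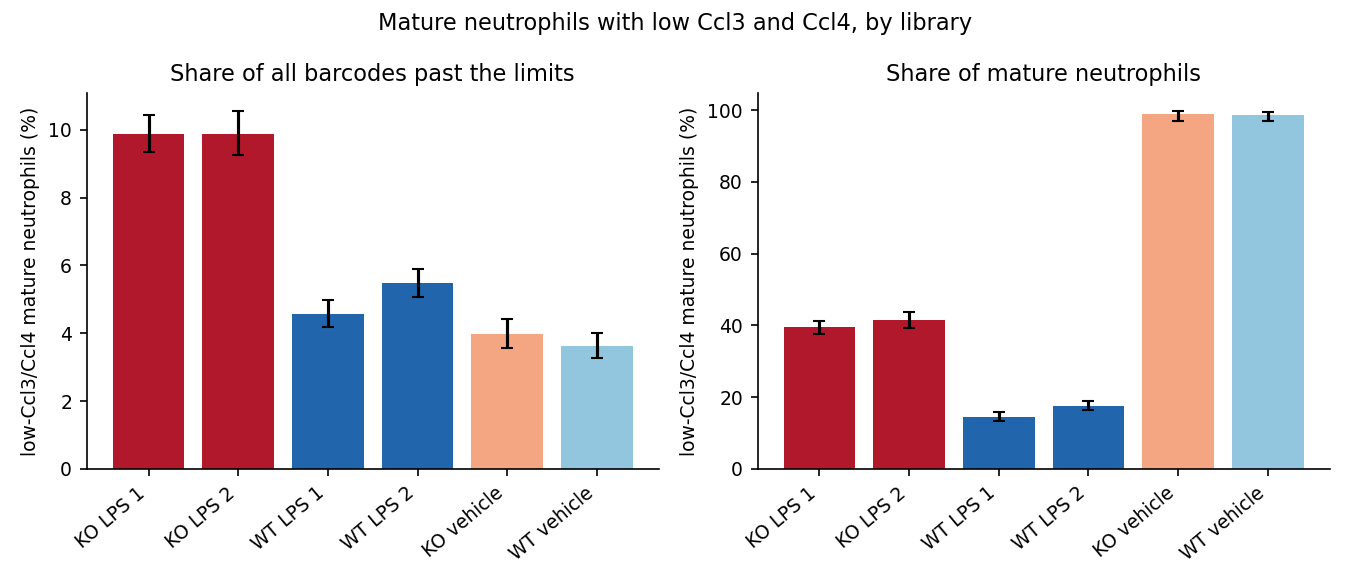
Share of low-Ccl3/Ccl4 mature neutrophils in each library, among all barcodes past the gene and mitochondrial limits (left) and among mature neutrophils (right), in percent. Bars are single libraries and whiskers are exact (Clopper-Pearson) 95% intervals, which cover counting error only. The KO LPS bars stand at 9.88% and 9.89% on the left and 39.5% and 41.5% on the right.

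Low-Ccl3/Ccl4 neutrophils made up nearly all mature neutrophils with vehicle and a minority after LPS, a difference that the rule itself reads through Ccl3 and Ccl4. Of all mature neutrophils they were 39.5% and 41.5% in KO LPS (1144 of 2895 and 829 of 1998), 14.6% and 17.6% in WT LPS (492 of 3372 and 661 of 3762), 98.8% in KO vehicle (342 of 346) and 98.7% in WT vehicle (376 of 381). No library of one treatment overlapped the other. Means were 28.3% with LPS and 98.8% with vehicle, a difference of -70.5 percentage points, which is given with no test because Ccl3 and Ccl4 chose the cells.

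Under LPS the low-Ccl3/Ccl4 share was higher in KO, at 40.5% ± 1.40 in KO and 16.1% ± 2.11 in WT (SD, n = 2 libraries each), 24.4 percentage points apart. This difference is also given with no test, because Ccl3 and Ccl4 chose the cells. Of all barcodes past the limits the cells were 9.88% and 9.89% in KO LPS, 4.57% and 5.48% in WT LPS, 3.98% in KO vehicle and 3.64% in WT vehicle, an LPS minus vehicle difference of 3.65 points, also with no test. The KO and WT LPS means there were 9.88% ± 0.00500 and 5.02% ± 0.643 (SD, n = 2 each), 4.86 points apart, again with no test. The share moved with the sex mark. Among Xist-marked mature neutrophils it was 21.0% and 22.7% in KO LPS and 14.96% and 17.2% in WT LPS, and among Y-marked ones in KO LPS it was 56.2% and 54.2%. A limit on a summed share also reads depth, and cells with no Ccl3 or Ccl4 UMI at all were 30.9% and 40.05% of the low-Ccl3/Ccl4 cells in KO LPS, 5.89% and 10.9% in WT LPS, 95.9% in KO vehicle and 94.4% in WT vehicle.

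LPS changed these cells broadly even though they had little Ccl3 and Ccl4. Every interferon-stimulated and MHC class I gene tested rose, as did most NF-kB feedback genes and the acute-phase gene Lcn2, and Cd101, Cxcr4 and Slc40a1 fell. Summed counts per library were tested with edgeR's quasi-likelihood test over 9822 genes, with Benjamini-Hochberg adjustment and trimmed-mean (TMM) scaling, and the 15 genes of the rule and mitochondrial genes were not tested. At an adjusted p below 0.05, 2980 genes were higher with LPS (30.3%) and 2220 were lower (22.6%). The median of all genes was 0.18 (log2). Under plain CPM scaling the same test gave 1635 higher and 3844 lower and a median of -0.48, so the share of calls that were higher was 57.3% with TMM and 29.8% without it, and small changes depend on the scaling. All CPM below are TMM-scaled unless stated, and each fold change averages both genotypes (n = 4 LPS and 2 vehicle libraries).

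All 30 interferon-stimulated genes tested rose with LPS (29 rose and 1 fell under plain CPM). Their median change was 4.74 (log2), beside 0.18 for all genes. Isg15, a ubiquitin-like modifier, had 6070.1 and 5164 CPM in the KO LPS libraries and 7337 and 7610.1 CPM in the WT LPS libraries, against 288 CPM in the KO vehicle library and 212 CPM in the WT vehicle library. Every LPS library stood far above both vehicle libraries, by 26.2-fold on average (log2 change 4.71 ± 0.14 SE, adjusted p = 4.61e-12). Ifit1, which binds viral RNA that lacks a host cap, had 2367 and 2560.4 CPM in the KO LPS libraries and 4199 and 4435 CPM in the WT LPS libraries, against 26.8 CPM in the KO vehicle library and 35.8 CPM in the WT vehicle library. It rose 105.3-fold (log2 change 6.72 ± 0.16 SE, adjusted p = 1.59e-12). Gbp2, a GTPase that attacks pathogen vacuoles, rose 55.6-fold, with 1759 and 1829 CPM in the KO LPS libraries and 2482 and 2736 CPM in the WT LPS libraries, against 50.6 CPM in the KO vehicle library and 29.8 CPM in the WT vehicle library (log2 change 5.80 ± 0.14 SE, adjusted p = 1.65e-12). Ifit3, a partner of Ifit1, had 1226 and 1185 CPM in the KO LPS libraries, 1846 and 1924 CPM in the WT LPS libraries, 37.3 CPM with vehicle in KO and 14.3 CPM with vehicle in WT, and rose too (log2 change 6.03 ± 0.15 SE, adjusted p = 1.65e-12). B cells of the same libraries, defined by Cd79a, serve as a comparison, and 20 of the 30 genes had more UMIs per low-Ccl3/Ccl4 cell than per B cell in every LPS library. UMIs per cell, here and below, are means, which a few barcodes can set. In B cells the cytokine list used below had median shares of 0.124% and 0.0867% in KO LPS and 0.159% and 0.163% in WT LPS. Its 95th percentiles were 1.88% and 1.80% in KO LPS and 2.99% and 2.87% in WT LPS. A B cell mean is thus not the level of a typical B cell. In Xist-marked cells, set against the vehicle cells of both marks, 29 rose and 1 fell.

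The genes with the largest rises by the naming rule were Saa3, Cxcl10, Nos2, Ifi208, Ifi211, Iigp1, Lipg, Pdzk1ip1, Phf11b and Tnip3. Of these Ifi208, Iigp1, Phf11b and Tnip3 had fewer UMIs per low-Ccl3/Ccl4 cell than per B cell in all 4 LPS libraries. Saa3, an acute-phase apolipoprotein, had 2822 and 2889.7 CPM in the KO LPS libraries and 6778 and 7277 CPM in the WT LPS libraries, against 0.956 CPM in the KO vehicle library and 0 CPM in the WT vehicle library, of which the vehicle value rests on 1 UMI. The ratio of CPM was 8189 with an exact 95% counting interval of 1470 to 323446. By these means B cells held as much or nearly as much of Saa3, with 16.9 and 11.8 UMIs per KO cell and 42.4 and 29.4 per WT cell against 15.7 and 9.81 UMIs per KO B cell and 43.7 and 50.9 per WT B cell. The part of free RNA in its level was not tested. Cxcl10, a chemokine that draws activated T cells and is named for its induction by interferon, rose 1225-fold, with 2276 and 2437 CPM in the KO LPS libraries and 6089 and 5849 CPM in the WT LPS libraries, against 3.82 CPM in the KO vehicle library and 2.38 CPM in the WT vehicle library (log2 change 10.26 ± 0.22 SE, adjusted p = 7.39e-13). It had 13.6 and 9.92 UMIs per KO cell and 38.1 and 23.7 per WT cell, against 11.3 and 7.77 UMIs per KO B cell and 23.3 and 17.8 per WT B cell. Nos2, the inducible nitric oxide synthase, had 82.4 and 86.5 CPM in the KO LPS libraries and 226 and 245 CPM in the WT LPS libraries and no UMI with vehicle. It was at least 86.8-fold higher with LPS, against a floor of 3 UMIs over both vehicle libraries (adjusted p = 8.27e-11), and had 0.494 and 0.352 UMIs per KO cell and 1.41 and 0.991 per WT cell, against 0.0831 and 0.0658 UMIs per KO B cell and 0.554 and 0.678 per WT B cell.

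Of 18 NF-kB pathway and feedback genes 17 rose and 1 fell (15 and 1 under plain CPM), with a median of 2.27. The one that fell, Nfkbid, is named after its value was seen. Nfkbia, the inhibitor that NF-kB induces and that holds it in the cytoplasm, had 3107 and 3356 CPM in the KO LPS libraries and 4056 and 4146 CPM in the WT LPS libraries, against 632 CPM in the KO vehicle library and 298 CPM in the WT vehicle library (log2 change 3.07 ± 0.11 SE, adjusted p = 2.27e-11). Sod2, the mitochondrial superoxide dismutase, had 1652 and 1947 CPM in the KO LPS libraries, 2402 and 2557 CPM in the WT LPS libraries, 23.9 CPM with vehicle in KO and 28.6 CPM with vehicle in WT, a rise of 6.33 (log2). Tnip1, a partner of the A20 deubiquitinase, rose by 3.41. Of the 18 genes 5 had more UMIs per low-Ccl3/Ccl4 cell than per B cell in every LPS library. Of 23 cytokine and chemokine genes 19 rose and 4 fell (18 and 5 under plain CPM), and 8 were above the B cell level in every LPS library. The median was 4.92, or 3.49 when the 5 genes without a vehicle UMI were set to their bound. Cxcl2, a neutrophil attractant, had 11711 and 12304 CPM in the KO LPS libraries and 12339 and 14036 CPM in the WT LPS libraries, against 2038 CPM in the KO vehicle library and 658 CPM in the WT vehicle library (log2 change 3.44 ± 0.13 SE, adjusted p = 3.99e-11). Il1rn, the antagonist of the IL-1 receptor, had 1534 and 1656 CPM in the KO LPS libraries and 2964 and 2999.8 CPM in the WT LPS libraries, against 172 CPM in the KO vehicle library and 128 CPM in the WT vehicle library (log2 change 3.88 ± 0.12 SE, adjusted p = 4.93e-12). Tnf had 184 and 168 CPM in the KO LPS libraries, 131 and 144 CPM in the WT LPS libraries, 18.2 CPM with vehicle in KO and 16.7 CPM with vehicle in WT (log2 change 3.16 ± 0.17 SE, adjusted p = 1.48e-09). Il1b, by contrast, was high with and without LPS, at 7633 and 8436 CPM in the KO LPS libraries, 7301 and 8446 CPM in the WT LPS libraries, 7334 CPM with vehicle in KO and 4086 CPM with vehicle in WT, and its change of 0.54 turned to -0.13 under plain CPM.

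Most pattern-receptor genes and every MHC class I and immunoproteasome gene tested rose, and fewer of both rose under plain CPM. Over all genes 30.3% were higher and 22.6% lower. Of 19 pattern-receptor genes 15 rose and 1 fell (10 and 3 under plain CPM). Cd14, the LPS co-receptor, had 2328 and 2438 CPM in the KO LPS libraries, 2869 and 3269 CPM in the WT LPS libraries, 272 CPM with vehicle in KO and 76.3 CPM with vehicle in WT (log2 change 4.23 ± 0.13 SE, adjusted p = 5.03e-12). Tlr2, the lipoprotein receptor, rose by 2.81, and Irak3, a kinase-dead inhibitor of Toll-like signalling, rose by 4.01. Of the 8 SOCS family genes 4 rose and none fell with edgeR (4 rose and 1 fell under plain CPM). Socs3, the inhibitor of IL-6 and G-CSF receptor signalling, had 949.9 and 1023 CPM in the KO LPS libraries, 1273 and 1442 CPM in the WT LPS libraries, 369 CPM with vehicle in KO and 167 CPM with vehicle in WT (log2 change 2.22 ± 0.11 SE, adjusted p = 4.19e-10). Socs1, which inhibits JAK kinases, had 197 and 204 CPM in the KO LPS libraries, 410.3 and 417 CPM in the WT LPS libraries, 8.60 CPM with vehicle in KO and 14.3 CPM with vehicle in WT (log2 change 4.69 ± 0.17 SE, adjusted p = 2.18e-11), but its UMIs per cell were like those of B cells, with 1.18 and 0.830 UMIs per KO cell and 2.57 and 1.69 per WT cell against 1.68 and 1.27 UMIs per KO B cell and 2.20 and 1.64 per WT B cell. Cish rested on 1 vehicle UMI. All 16 MHC class I and immunoproteasome genes rose (12 rose and 1 fell under plain CPM), with a median of 2.23, but B cells express these genes too and 2 of the 16 were above them in every LPS library. Among them Tapbp, which loads peptides, rose by 2.57 and H2-K1 by 2.20. Of 13 inhibitory receptors and ligands 7 rose and 4 fell (7 and 5 under plain CPM). Lilrb4a rose by 1.60 and Cd274 (PD-L1) by 3.64, Cd274 with 1.42 and 0.930 UMIs per KO cell and 2.46 and 1.44 per WT cell against 1.58 and 0.975 UMIs per KO B cell and 2.38 and 1.78 per WT B cell.

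**Figure D2:**
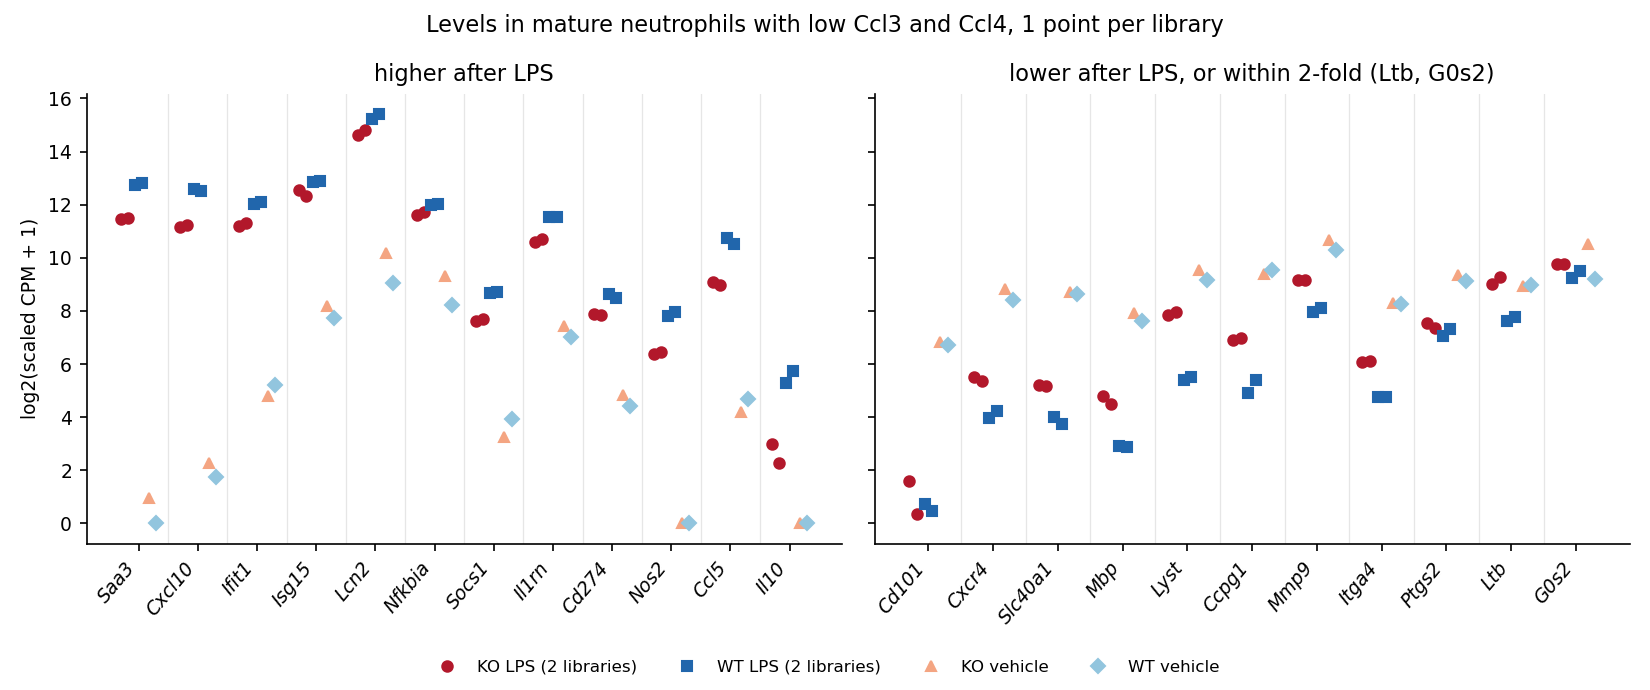
TMM-scaled CPM on a log2(CPM + 1) axis for 23 genes in low-Ccl3/Ccl4 neutrophils, 1 point per library. KO LPS (red circles) and WT LPS (blue squares) lie far above the vehicle libraries (triangle and diamond) for genes such as Ifit1, Isg15 and Lcn2 and below them for Cd101, Cxcr4, Slc40a1 and Mbp. Points at 0 have no UMI.

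Among the genes that fell most were surface and iron-handling genes. Cd101, a receptor on fully mature neutrophils, had 2.04 and 0.296 CPM in the KO LPS libraries and 0.650 and 0.374 CPM in the WT LPS libraries, against 114 CPM in the KO vehicle library and 104.9 CPM in the WT vehicle library. It was near absent in every LPS library (log2 change -6.90 ± 0.30 SE, adjusted p = 1.45e-10). The fall of this 1 transcript does not by itself measure maturity, and the maturity of the LPS cells beyond the granule limit was not tested. Cxcr4, the receptor that holds neutrophils in the marrow and rises as they age, had 44.8 and 40.3 CPM in the KO LPS libraries and 14.6 and 18.0 CPM in the WT LPS libraries, against 450.1 CPM in the KO vehicle library and 343 CPM in the WT vehicle library (log2 change -3.90 ± 0.11 SE, adjusted p = 3.02e-12). Slc40a1 (ferroportin), the iron exporter, had 35.6 and 34.7 CPM in the KO LPS libraries and 14.95 and 12.3 CPM in the WT LPS libraries, against 414 CPM in the KO vehicle library and 399 CPM in the WT vehicle library (log2 change -4.21 ± 0.11 SE, adjusted p = 1.65e-12). Mbp fell by 4.11, Scnn1a, a subunit of the epithelial sodium channel, by 4.58 and Eif2ak3 (PERK), an unfolded-protein sensor, by 4.36 (log2). Fbxo31, Rab11fip4 and Tbc1d10c were also among the 10 largest falls. Every LPS library lay below both vehicle libraries for these genes, since the naming rule asks for it.

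Adhesion, granule and metabolic lists were mixed, and their balance depends on the scaling. Of all genes tested, 30.3% were higher and 22.6% lower (1635 and 3844 of 9822 under plain CPM). Of 24 trafficking and adhesion genes 11 rose and 8 fell (7 and 12 under plain CPM). Fpr2, a formyl peptide receptor, rose by 2.60 and Itga4, the alpha 4 integrin, fell by 2.89. Of 16 granule genes tested out of 20, 10 rose and 3 fell (8 and 7 under plain CPM). Lcn2, the siderophore-binding protein of specific granules, rose 42.6-fold, with 25524 and 28795 CPM in the KO LPS libraries and 38404 and 43700.0 CPM in the WT LPS libraries, against 1165 CPM in the KO vehicle library and 528 CPM in the WT vehicle library (log2 change 5.41 ± 0.17 SE, adjusted p = 8.60e-12). Mmp9 (gelatinase B) had 572 and 570.2 CPM in the KO LPS libraries and 246 and 279 CPM in the WT LPS libraries, against 1610.2 CPM in the KO vehicle library and 1242 CPM in the WT vehicle library and fell (log2 change -1.87 ± 0.08 SE, adjusted p = 1.74e-10). Wfdc21 rose by 3.99. Of 20 glycolysis and hypoxia genes 11 rose and 5 fell (6 and 10 under plain CPM). Pfkfb3, which drives glycolytic flux, rose by 4.17, while the glucose transporter Slc2a3 fell by 3.07. In eicosanoid synthesis 3 of 11 rose and 3 fell (3 and 5 under plain CPM). Ptgs2 (cyclooxygenase 2) fell by 1.94 and Alox5ap, the partner of 5-lipoxygenase, by 1.14. Il1r2, the decoy receptor for IL-1, rose by 3.10.

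The other lists are given by their counts with LPS. Beside them, 30.3% of all genes were higher and 22.6% lower (1635 and 3844 of 9822 under plain CPM). Of 18 cytokine receptor genes 12 rose and 2 fell (9 and 7 under plain CPM). Of 19 survival genes 12 rose and 3 fell, and of 17 transcription factor genes 13 rose and 3 fell (11 and 5, and 10 and 4, under plain CPM). Of 9 NADPH oxidase genes 6 rose and 1 fell (2 and 5 under plain CPM). Of 19 immediate-early and dissociation genes, which also rise during tissue digestion, 9 rose and 5 fell (4 and 11 under plain CPM). Of 12 glucocorticoid-response genes 6 rose and 2 fell (4 and 5 under plain CPM), and of 9 clock genes 1 rose and 1 fell (1 and 3 under plain CPM). Of 9 S100 and stefin A genes outside the rule 8 rose and 1 fell (6 and 1 under plain CPM). In the nitric oxide and arginine list 5 of 7 rose and none fell (4 and 0 under plain CPM), among them Gch1, which makes the cofactor of nitric oxide synthases, by 3.58. Ass1, which recycles citrulline, had 19.0 and 20.2 CPM in the KO LPS libraries and 37.1 and 28.8 CPM in the WT LPS libraries, no vehicle UMI, and fewer UMIs per cell than B cells.

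**Figure D3:**
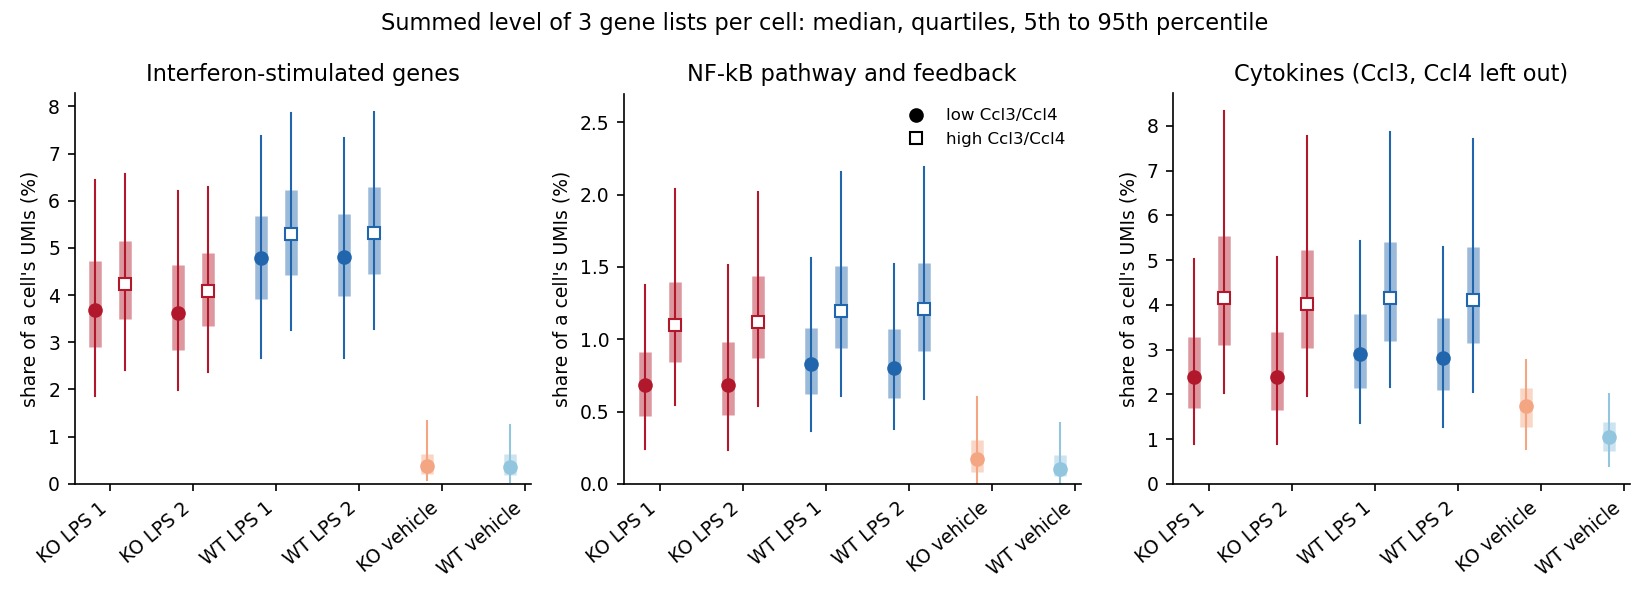
Percent of each cell's UMIs that came from 3 gene lists, for low-Ccl3/Ccl4 (filled circles) and, under LPS, high-Ccl3/Ccl4 neutrophils (open squares). Markers are medians over cells, thick bars quartiles and thin lines the 5th to 95th percentile. KO LPS, WT LPS and vehicle libraries run left to right, and the low-Ccl3/Ccl4 interferon medians are 3.69% and 3.62% in KO LPS and 4.79% and 4.81% in WT LPS.

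The change was shared by most cells of a library. The interferon list took a median of 3.69% and 3.62% in KO LPS, 4.79% and 4.81% in WT LPS, 0.382% in KO vehicle and 0.351% in WT vehicle, as a share of each cell's UMIs. Its 5th percentile in every LPS library, 1.87% to 2.66%, was above the 95th percentile in both vehicle libraries, 1.33% in KO and 1.26% in WT. The NF-kB list showed the same order of treatments with more overlap, with medians of 0.681% and 0.684% in KO LPS, 0.830% and 0.7998% in WT LPS, 0.171% in KO vehicle and 0.103% in WT vehicle. Cells are not replicates, so these are descriptions of each library. In B cells, which carry free RNA and their own response, the interferon median was 1.12% and 1.06% in KO LPS, 1.00% and 1.06% in WT LPS, 0.0844% in KO vehicle and 0.0668% in WT vehicle.

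Near the Ccl3 and Ccl4 limit the lists changed little. Cells just inside it (0.1% to 0.2% of UMIs) had interferon medians of 3.95% and 3.67% in KO LPS and 4.76% and 4.74% in WT LPS, and cells just outside (0.2% to 0.3%) had 3.71% and 3.93% in KO LPS and 4.80% and 4.80% in WT LPS. For the NF-kB list the medians just inside were 0.846% and 0.885% in KO LPS and 0.912% and 0.884% in WT LPS, and just outside 0.968% and 0.919% in KO LPS and 0.953% and 0.925% in WT LPS.

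Set against high-Ccl3/Ccl4 neutrophils of the same LPS libraries, the low cells had somewhat lower interferon medians and a larger deficit in NF-kB and cytokine transcripts. These are descriptions, since the limit chose the cells, and the CPM here are not TMM-scaled. Against the low-cell medians given above, high cells had interferon medians of 4.24% and 4.08% in KO LPS and 5.30% and 5.33% in WT LPS, and NF-kB medians of 1.10% and 1.12% in KO LPS and 1.20% and 1.21% in WT LPS. Cytokine medians, Ccl3 and Ccl4 left out, were 2.39% and 2.39% in KO LPS and 2.89% and 2.80% in WT LPS in low cells, against 4.15% and 4.02% in KO LPS and 4.15% and 4.12% in WT LPS in high cells. Of 1967 genes compared, 1255 had the same sign in all 4 libraries, 515 lower and 740 higher in low cells. Past 2-fold in all 4 libraries, 9 were higher and 2 lower, and the 2 were Ccl3 and Ccl4 themselves.

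By the naming rule the genes lowest in low cells were Cxcl3, Il1a, Serpinb2, Tnip3, Cpeb4, Gadd45b, Gzma and Gzmb. Cxcl3, a neutrophil attractant, had 304 and 203 CPM in low cells of KO LPS and 491 and 389 CPM in low cells of WT LPS, against 1123 and 841 CPM and 661 and 662 CPM in the high cells of KO LPS and WT LPS. Gadd45b, a stress gene induced by NF-kB, had 435 and 501 CPM in low cells of KO LPS and 666 and 579 CPM in low cells of WT LPS, against 1011 and 999 CPM and 1365 and 1369.6 CPM in the high cells of KO LPS and WT LPS. The median log2 difference over the 4 libraries, low minus high, was -1.33 for Cxcl3, -1.13 for Gadd45b, -1.37 for Il1a (IL-1 alpha), -1.77 for Serpinb2, -1.16 for Cpeb4 and -1.16 for Tnip3. Gzma and Gzmb, granzymes of cytotoxic lymphocytes, were held by few cells, with UMIs in 20 to 27 cells per library for Gzma. Nfkbia differed by -0.64, Cxcl2 by -0.71, Il1b by -0.55 and Isg15 by -0.20. Mmp9 (0.99) and Retnlg (0.71) were higher in low cells in all 4 libraries, and Nos2 (-0.01) was not of 1 sign.

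The genes highest in low cells were Lyve1, Timp3, Col4a1, Igfbp7, Akap12, Plet1, Atp6v0d2 and Ctla2a, of which Lyve1 is a marker of lymphatic endothelium and Col4a1 a basement membrane collagen. The median log2 difference was 2.39 for Lyve1 and 2.07 for Akap12. They were concentrated in few barcodes: the 5 cells with most Akap12 held 64.6% and 84.7% of its UMIs in KO LPS and 76.9% and 84.8% in WT LPS. Barcodes with at least 2 UMIs of endothelial and alveolar macrophage markers (Chil3 left out) were 11.5% and 5.55% of the low cells in KO LPS, 12.6% and 8.77% in WT LPS, 4.39% in KO vehicle and 1.86% in WT vehicle. They were more frequent among Xist-marked low cells, at 38.0% and 28.0% in KO LPS, 26.2% and 24.8% in WT LPS and 16.1% in KO vehicle. Their part in these differences was not tested. Platelet and erythroid markers summed, without TMM scaling, to 257 and 775 CPM in WT LPS replicate 2 and to at most 20.1 and 8.31 CPM in any other library.

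**Figure D4:**
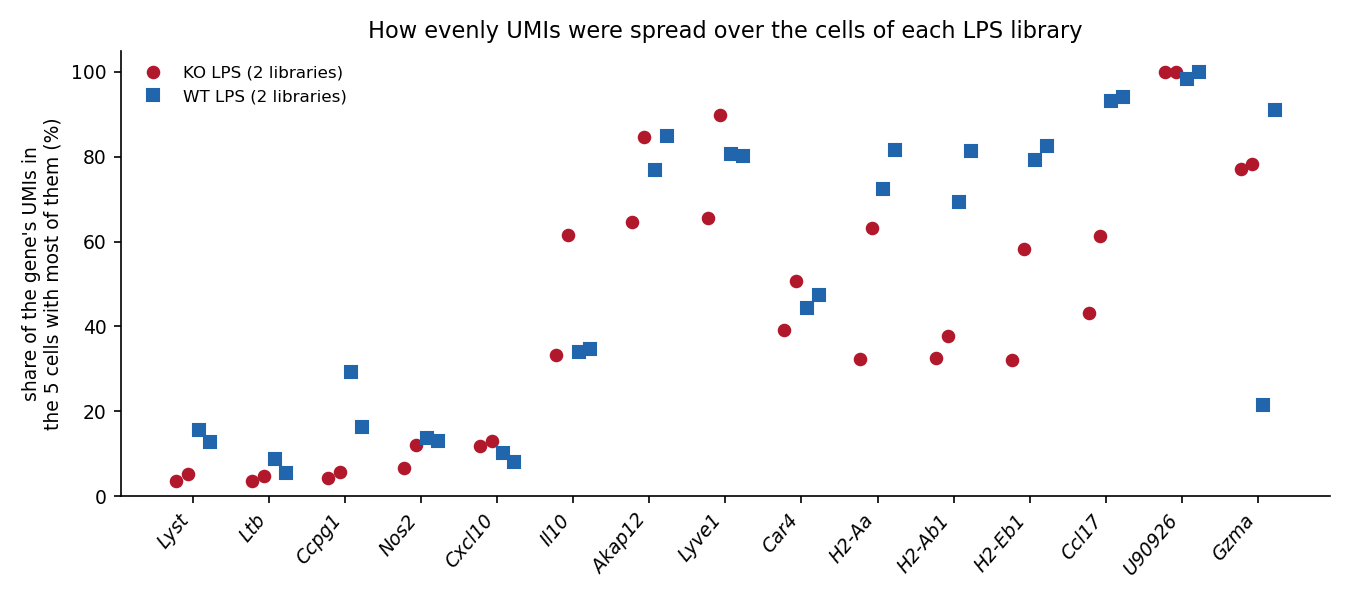
Percent of a gene's UMIs held by the 5 low-Ccl3/Ccl4 cells with most of them, in each LPS library (red circles KO, blue squares WT). Lyst, Ltb, Nos2 and Cxcl10 were spread over many cells, and Ccl17 in WT LPS, at 93.2% and 94.0%, was held by a handful.

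Under LPS, KO and WT low-Ccl3/Ccl4 neutrophils differed in both directions. Of the lists, 23 of 30 interferon-stimulated, 9 of 18 NF-kB and 11 of 23 cytokine genes were lower in KO, and Lyst, Ccpg1, Cxcr4 and Mmp9, which LPS lowered, were higher. With edgeR's quasi-likelihood test 633 genes were higher in KO (6.44%) and 711 were lower (7.24%), of 9822, and the median of all genes was -0.01. The calls numbered 1344 in all, 854 without KO LPS replicate 2 and 2047 without WT LPS replicate 2. Under plain CPM 1064 were higher and 479 lower, so 69.0% of calls were higher in KO against 47.1% with TMM. Of genes on chromosome 5 within 10 Mb of Nos1 (chr5:117781032-117958840, plus strand, GRCm38), 21 of 157 were called (13.4%), beside 13.7% of all genes.

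Of the 30 interferon-stimulated genes 23 were lower in KO and none higher (23 lower and 1 higher under plain CPM), with a median of -0.54. Ifit1 averaged 2464 ± 137 CPM in KO and 4317 ± 167 CPM in WT (SD, n = 2 libraries each) (log2 change -0.81 ± 0.10 SE, adjusted p = 1.32e-04). Isg15 had 6070.1 and 5164 CPM in the KO LPS libraries and 7337 and 7610.1 CPM in the WT LPS libraries, a smaller difference that still passed (log2 change -0.41 ± 0.11 SE, adjusted p = 0.0287). The 2 KO libraries lay below both WT libraries for both genes. Of the MHC class I genes 10 of 16 were lower, median -0.40, among them H2-K1 (-0.40), and 8 under plain CPM. Psme2 (-0.07, adjusted p = 0.719) did not pass. Of the NF-kB genes 9 of 18 were lower and 1 higher (7 and 2 under plain CPM), with Zc3h12a (regnase-1), an RNase that degrades cytokine transcripts, at 141 and 148 CPM in the KO LPS libraries and 236 and 247 CPM in the WT LPS libraries (log2 change -0.74 ± 0.10 SE, adjusted p = 2.50e-04). Nfkbia differed by -0.34 (adjusted p = 0.0365).

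Of the cytokine genes 11 of 23 were lower and 1 higher in KO. Cxcl10 averaged 2356 ± 114 CPM in KO and 5969 ± 169 CPM in WT (SD, n = 2 libraries each), 0.395 times the WT level (log2 change -1.34 ± 0.10 SE, adjusted p = 3.22e-06). Il1rn averaged 1595 ± 86.1 CPM in KO and 2982 ± 25.5 CPM in WT (SD, n = 2 libraries each) (log2 change -0.90 ± 0.10 SE, adjusted p = 3.87e-05). Ccl5 (RANTES) had 549.8 and 498 CPM in the KO LPS libraries and 1703 and 1466 CPM in the WT LPS libraries (log2 change -1.60 ± 0.10 SE, adjusted p = 8.51e-07), but B cells held more of it, with 3.29 and 2.03 UMIs per KO cell and 10.6 and 5.93 per WT cell against 13.6 and 9.05 UMIs per KO B cell and 38.0 and 25.2 per WT B cell, and the part of free RNA in its level was not tested. Il10 was also near the B cell level, with 7.002 and 3.85 CPM in the KO LPS libraries and 38.4 and 52.7 CPM in the WT LPS libraries (log2 change -2.96 ± 0.26 SE, adjusted p = 6.73e-06), for which there were 0.0420 and 0.0157 UMIs per KO cell and 0.240 and 0.213 per WT cell and 0.0308 and 0.0249 UMIs per KO B cell and 0.201 and 0.110 per WT B cell. Other cytokines did not follow. Tnf was slightly higher in KO, with 184 and 168 CPM in the KO LPS libraries and 131 and 144 CPM in the WT LPS libraries (log2 change 0.36 ± 0.11 SE, adjusted p = 0.0444). Il1b, at 0.03 ± 0.12 SE (adjusted p = 0.922), and Cxcl2, at -0.14 ± 0.12 SE (adjusted p = 0.546), did not pass.

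In the nitric oxide and arginine list 5 of 7 genes were lower in KO and none higher (3 and 0 under plain CPM). Nos2 averaged 84.5 ± 2.92 CPM in KO and 235 ± 13.7 CPM in WT (SD, n = 2 libraries each), 0.359 times the WT level (log2 change -1.48 ± 0.11 SE, adjusted p = 2.59e-06). It was found in 22.6% and 18.5% of KO cells and 39.0% and 33.6% of WT cells, or 6.22% and 7.40% against 13.2% and 13.03% after thinning each cell to 1000 UMIs. Thinned B cells of the same libraries gave 0.594% and 0.717% in KO and 1.503% and 2.09% in WT. Socs1, named in the title of the series, had 197 and 204 CPM in the KO LPS libraries and 410.3 and 417 CPM in the WT LPS libraries (log2 change -1.05 ± 0.09 SE, adjusted p = 8.88e-06), with the B cell levels given above. Cish, another SOCS family member, had 128 and 125 CPM in the KO LPS libraries and 257 and 323 CPM in the WT LPS libraries (log2 change -1.20 ± 0.12 SE, adjusted p = 1.96e-05), and Socs3 differed by -0.46. Saa3 averaged 2856 ± 47.7 CPM in KO and 7027 ± 353 CPM in WT (SD, n = 2 libraries each) (log2 change -1.30 ± 0.11 SE, adjusted p = 5.19e-06), and its B cell levels above differed the same way. Orm1, an acute-phase glycoprotein, had 135 and 74.98 CPM in the KO LPS libraries and 402 and 487 CPM in the WT LPS libraries (log2 change -2.05 ± 0.19 SE, adjusted p = 1.30e-05), and B cells held 0.108 and 0.0427 UMIs per KO B cell and 0.166 and 0.155 per WT B cell. Cd274 differed by -0.69.

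Genes higher in KO included several that LPS lowered. Lyst, a regulator of lysosome and granule size that is mutated in Chediak-Higashi syndrome and the beige mouse, averaged 239.6 ± 12.8 CPM in KO and 42.9 ± 1.78 CPM in WT (SD, n = 2 libraries each), 5.58 times the WT level (log2 change 2.48 ± 0.11 SE, adjusted p = 4.49e-08), and had 747 CPM in the KO vehicle library and 571 CPM in the WT vehicle library. Per cell there were 1.38 and 1.01 UMIs per KO cell and 0.260 and 0.179 per WT cell, against 0.356 and 0.250 UMIs per KO B cell and 0.4003 and 0.329 per WT B cell, so the KO level was above that of B cells and the WT level below it. Ccpg1, an adaptor for degradation of the endoplasmic reticulum, had 120.1 and 126 CPM in the KO LPS libraries, 28.9 and 41.1 CPM in the WT LPS libraries, 678 CPM with vehicle in KO and 752 CPM with vehicle in WT (log2 change 1.82 ± 0.14 SE, adjusted p = 3.74e-06 for KO against WT). Ltb, lymphotoxin beta, had 517 and 616 CPM in the KO LPS libraries, 197 and 219.6 CPM in the WT LPS libraries, 485 CPM with vehicle in KO and 505 CPM with vehicle in WT (log2 change 1.44 ± 0.11 SE, adjusted p = 3.22e-06). Mmp9 averaged 571 ± 1.32 CPM in KO and 262 ± 23.2 CPM in WT (SD, n = 2 libraries each) (log2 change 1.12 ± 0.10 SE, adjusted p = 8.78e-06). Cxcr4 (1.40), Itga4 (1.36), Slc40a1 (1.36), Slc2a3 (1.495), Mtus1 (1.64), Tmem154 (1.55), Tmem71 (1.75) and Alox5ap (0.72) were higher too. Pmaip1 was the remaining gene of the 8 largest rises.

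The 8 largest falls in KO, several of them held by few cells, were in the MHC class II genes H2-Aa, H2-Ab1 and H2-Eb1, Ccl17, a chemokine of dendritic cells, U90926, Ch25h, Car4 and Orm1. H2-Ab1 had 14.7 and 18.1 CPM in the KO LPS libraries and 104.7 and 78.5 CPM in the WT LPS libraries (log2 change -2.51 ± 0.18 SE, adjusted p = 2.31e-06), and in WT LPS the 5 cells with most of it held 69.3% and 81.4% of its UMIs. For Ccl17 these 5 cells held 93.2% and 94.0% in WT LPS and 43.1% and 61.4% in KO LPS. Dendritic cell markers, from a list of 6, summed to 5.32 and 1.30 CPM in KO LPS and 47.9 and 30.1 CPM in WT LPS, without TMM scaling. Of these Clec9a was at 0 in all 4 LPS libraries, Flt3 in KO LPS replicate 2 and both WT LPS libraries, Xcr1 in replicate 1 of KO LPS and of WT LPS, and Cd209a in KO LPS replicate 2. Their part in these falls was not tested. By contrast the 5 top cells held 3.54% and 5.24% of Lyst UMIs in KO and 15.6% and 12.7% in WT.

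Calls in the remaining lists ran from none of 9 clock genes to 11 of 20 glycolysis genes, beside 13.7% of all genes called in either direction. Of the 20 glycolysis genes 8 were higher and 3 lower, median 0.33 (11 and 3 under plain CPM). Of 24 trafficking genes 3 were higher and 1 lower (9 and 1 under plain CPM), of 16 granule genes 3 higher and 4 lower (8 and 3 under plain CPM), and of 19 pattern-receptor genes 3 each way (4 and 3 under plain CPM). Of 19 survival genes 3 were higher and 4 lower, of 18 cytokine receptors 4 higher and 3 lower, of 9 NADPH oxidase genes 3 higher and none lower (4 and 0 under plain CPM), and of 19 immediate-early genes 5 higher and 1 lower (11 and 1 under plain CPM). In the eicosanoid list 1 was higher and 2 lower, a balance that turned to 2 higher and 1 lower under plain CPM. In the glucocorticoid list 3 were higher and 1 lower (3 and 0 under plain CPM), among inhibitory receptors 1 higher and 2 lower, of the 8 SOCS genes 3 lower, and among transcription factors 2 lower (4 higher and 1 lower under plain CPM). Of 9 S100 and stefin A genes 2 were lower (1 higher under plain CPM), and no clock gene passed in edgeR under either scaling. Retnlg (0.46) and G0s2 (0.40), neutrophil genes named in the marker set, were slightly higher in KO.

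**Figure D5:**
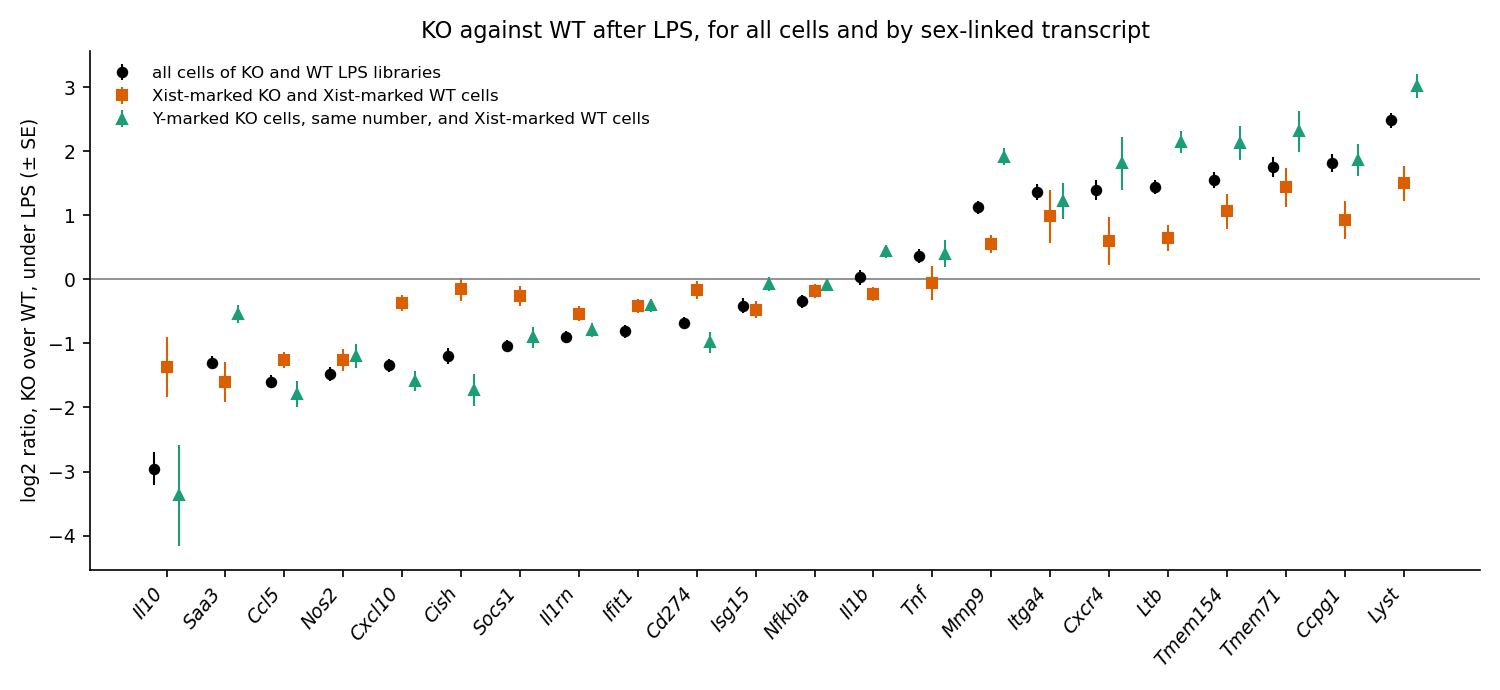
KO over WT log2 ratio under LPS with its SE for 22 genes, in all low-Ccl3/Ccl4 cells (black), in Xist-marked cells of both genotypes (orange), and with as many Y-marked KO cells set against Xist-marked WT cells (green). Orange points lie nearer 0 than black ones for Cxcl10, Socs1 and Lyst, and near the black ones for Nos2 and Ccl5.

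Most of the difference between KO and WT was not called when the sex mark was held alike. Among Xist-marked cells only (71 and 50 KO, 145 and 165 WT), 17 of 6341 genes were called (0.268%) by edgeR, with 683 at an unadjusted p below 0.05. With the same number of Y-marked KO cells set against the same WT cells, 1001 of 5302 were called (18.9%). Of the 1344 genes called in all cells, 1236 could be tested in Xist-marked cells and 1040 of those had the same sign there, with a median change of 0.33 in that direction, against 0.72 in all cells. The mixed barcodes described above were frequent among Xist-marked cells, and without them 22 of 4129 genes were called (0.533%), with 363 at an unadjusted p below 0.05. No interferon, MHC class I or NF-kB list gene was called in Xist-marked cells by edgeR, and their medians were -0.31, -0.27 and -0.06. With the matched number of Y-marked KO cells the medians were -0.31, -0.19 and -0.26. There 11 of 30 interferon genes were called lower and 2 higher. Of 16 MHC class I genes 3 were lower, and of 18 NF-kB genes 6 were lower and 1 higher. The interferon list still took a smaller median share of UMIs in Xist-marked KO cells, at 3.64% and 3.13%, than in Xist-marked WT cells, at 4.56% and 4.33%.

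Single genes differed in how far the mark mattered. Nos2 differed by -1.26 ± 0.18 SE in Xist-marked cells (adjusted p = 0.0235) and -1.20 ± 0.19 SE with Y-marked KO cells (adjusted p = 6.21e-04). Lyst differed by 1.5 ± 0.27 SE in Xist-marked cells (adjusted p = 0.0687) and 3.01 ± 0.18 SE with Y-marked KO cells (adjusted p = 3.82e-07), so in Xist-marked cells its difference did not pass. Within the KO LPS libraries Lyst had 235 and 271 CPM in Y-marked cells and 136 and 82.3 CPM in Xist-marked cells. The CPM by mark within KO LPS, here and for the genes that follow, are not TMM-scaled. Cxcl10 differed by -0.37 ± 0.12 SE in Xist-marked cells (adjusted p = 0.327) and -1.59 ± 0.15 SE with Y-marked KO cells (adjusted p = 8.69e-06), and within KO LPS it had 1196 and 1511 CPM in Y-marked cells and 3711 and 3995 CPM in Xist-marked cells. Ifit1 differed by -0.41 ± 0.11 SE in Xist-marked cells (adjusted p = 0.249) and -0.40 ± 0.10 SE with Y-marked KO cells (adjusted p = 0.0120), with 1904 and 2012 CPM in Y-marked cells and 2194 and 2227 CPM in Xist-marked cells within KO LPS. Saa3 differed by -1.61 ± 0.31 SE in Xist-marked cells (adjusted p = 0.0782) and -0.54 ± 0.14 SE with Y-marked KO cells (adjusted p = 0.0133). Of the 17 genes called in Xist-marked cells 10 were lower in KO and 7 higher. The lower ones were Nos2, Ccl5, Fcgr1, Pnp, Ifi27l2a, AW112010, Ccl7, H2-Aa, H2-Ab1 and U90926, and few cells held the last 3. Fcgr1, the high-affinity IgG receptor, differed by -1.31 ± 0.18 SE in Xist-marked cells (adjusted p = 0.0199) and -1.08 ± 0.10 SE in all cells. Pnp, a purine phosphorylase, differed by -0.83 ± 0.12 SE in Xist-marked cells (adjusted p = 0.0249) and -1.13 ± 0.09 SE in all cells, and the interferon-induced gene Ifi27l2a, which is not in the list above, by -0.79 ± 0.13 SE in Xist-marked cells (adjusted p = 0.0419) and -1.19 ± 0.09 SE in all cells. The higher ones were Sorl1, Asprv1, Zbtb20, Sptbn1, Gm42418 and the matrix protein genes Sparc and Sparcl1, known from endothelium and stroma. Sorl1, a sorting receptor, differed by 1.08 ± 0.16 SE in Xist-marked cells (adjusted p = 0.0249) and 1.08 ± 0.11 SE in all cells, and Asprv1, a retroviral-like protease, by 1.63 ± 0.24 SE in Xist-marked cells (adjusted p = 0.0249) and 1.39 ± 0.12 SE in all cells. Sptbn1 was the one of the 17 not called in all cells. Those outside the naming rule are named after their values were seen. Only 121 KO cells carried Xist alone, which limits these estimates.

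Few genes were called for a difference in LPS response between genotypes, and their number was not stable. For the KO minus WT difference of the LPS change, edgeR called 73 genes higher (0.743%) and 116 lower (1.18%) of 9822. These 189 calls were 457 without WT LPS replicate 1 and 534 without WT LPS replicate 2, and under plain CPM 274 were higher and 109 lower (71.5% higher, against 38.6% with TMM). The 4 smallest p belonged to Xist, Eif2s3y, Ddx3y and Oasl2, the first 3 being sex-linked. Oasl2, an interferon-induced 2′-5′ oligoadenylate synthetase-like gene at chr5:114896936-114912234 (plus strand, GRCm38), had 154 and 154 CPM in the KO LPS libraries and 247 and 219 CPM in the WT LPS libraries, against 8.60 CPM in the KO vehicle library and 222 CPM in the WT vehicle library. It was low in the KO vehicle library alone (9 UMIs, against 186 in WT vehicle), and the difference in response was 4.08 ± 0.32 SE (log2, adjusted p = 1.37e-05). Oasl2 lies on the chromosome of Nos1, inside the 10 Mb window used above, and whether the strain background of the KO differs from WT there was not tested. Lyst had a difference of 2.09 ± 0.18 SE (adjusted p = 3.81e-05), since LPS lowered it less in KO. Each rests on 1 vehicle library per genotype, and those libraries differ in sex mark. Among Xist-marked cells of the LPS and KO vehicle libraries set against Y-marked cells of WT vehicle, the 1 gene called was Xist, which the marks themselves define.

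The vehicle libraries themselves can be compared only as 2 libraries, with no test of genotype. Of 1077 genes with at least 100 UMIs in one of them, 41 were past 2-fold either way (3.81%). Ratios are of CPM, with exact 95% counting intervals in brackets. The largest KO over WT ratios were 4.08 (2.62 to 6.60) for Thbs1 (thrombospondin 1), 3.57 (2.71 to 4.76) for Cd14, 3.10 (2.82 to 3.41) for Cxcl2, 3.06 (2.01 to 4.83) for Oasl1 and 2.96 (2.16 to 4.11) for Nr4a1, an immediate-early nuclear receptor. The smallest were 0.0388 (0.0175 to 0.0752) for Oasl2, 0.409 (0.333 to 0.502) for the linker histone gene Hist1h1c, 0.454 (0.346 to 0.591) for Slfn5, 0.583 (0.501 to 0.677) for Hist1h2bc and 0.605 (0.444 to 0.822) for Hgsnat, a lysosomal acetyltransferase. Thbs1 had 1124 and 1127 CPM in the KO LPS libraries and 1852 and 2358 CPM in the WT LPS libraries, against 117 CPM in the KO vehicle library and 28.6 CPM in the WT vehicle library, so the KO vehicle value stood between WT vehicle and the LPS libraries. The intervals cover counting error only.

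Removing the mixed barcodes was tried as an alternative added after the data were seen. It gave 586 genes higher and 818 lower in KO under LPS. Akap12, Timp3 and Lyve1 had KO minus WT differences of -0.39, 0.44 and 0.05 there, with none passing edgeR's threshold. Their ratios of low against high cells, given above, were not computed again without these barcodes. Nos2 differed by -1.64, Cxcl10 by -1.51 and Lyst by 2.40 in those cells. Of the interferon list 27 of 30 genes were then lower in KO and none higher.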

How the data were processed

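The authors deposited per-library matrices of UMI counts per gene and barcode, made with Cell Ranger 6.1.0 on mm10, per the submitters' processing notes, which also name Seurat 4.1.0 and R 4.1.3. No cell annotation was used. Cells were taken by the rule stated in the results, and no doublets were removed, since Scrublet's automatic threshold called 0 barcodes in 3 libraries (KO LPS replicate 2 and both WT LPS) and 319 to 1964 in the other libraries (an alternative removes the highest scores of each library, 582 to 1194 barcodes). Members and gene lists were chosen with earlier results of these data known.

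UMIs of the low-Ccl3/Ccl4 cells were summed per library and fitted in R 4.3.3 with edgeR 4.0.16 (filterByExpr, TMM, glmQLFit, glmQLFTest), 1 mean per group over all 6 libraries, with 2 residual degrees of freedom. LPS against vehicle, KO against WT under LPS and the difference in response were contrasts of that fit, with Benjamini-Hochberg adjustment over all genes tested. The 15 genes of the rule and mitochondrial genes stayed in library sizes but out of tests. SE is the log2 change divided by the square root of F. Shares carry exact (Clopper-Pearson) 95% intervals, which cover counting error only, and no test of the shares is given. The 2 libraries of each LPS group differed beyond sampling noise (chi-square per degree of freedom 2.62 in KO and 3.79 in WT), and both were used.

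Named genes were, for genes reaching 50 CPM whose libraries do not overlap, the 10 largest rises and falls with LPS and the 8 in each direction between KO and WT. Added to these were the 4 smallest p for the difference in response, the 5 largest and smallest vehicle ratios (at least 100 UMIs), the 8 largest and smallest low against high ratios, up to 4 members of each list for LPS and 2 for KO, and a set always named (among them Nos1, Nos2, Socs1, Socs3, Tnf and Il1b). The listed genes Clec7a, Mx1, Mx2, BC100530 and Gm5483 had no match by symbol, Aldoa matched more than 1 ID and was not tested, and others were too low to test. Some genes that the rule names are not reported here. Sex marks, mixed barcodes and their combinations were alternatives chosen after seeing the data, and DESeq2 1.42.0, RLE and plain CPM scaling, no low-count filter, limits of 0.1% and 0.4%, a mitochondrial limit of 5%, at least 1000 UMIs, thinning, doublet removal, shared barcodes and leaving out each library were the others. The tests were tested on simulated counts. Python 3.11.15, scanpy 1.11.5, scipy 1.17.1 and matplotlib 3.10.9 were used. Of 32285 feature IDs, 32158 were in GENCODE M21, and promoter sequences are from RefSeq.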

Additional observations from a re-analysis of the deposited data

Results flagged for a closer look

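Each result here is a gene whose change with LPS differed between KO and WT by edgeR's interaction test at a Benjamini-Hochberg adjusted p below 0.05, with 2 KO LPS, 2 WT LPS, 1 KO vehicle and 1 WT vehicle library. Values are the KO minus WT difference of the log2 LPS change. Every one rests on a single vehicle library per genotype, and those libraries differ in sex mark. The sex-linked genes Xist, Eif2s3y and Ddx3y had adjusted p of 8.75e-07, 8.75e-07 and 9.52e-07, and no fold is given because they are at 0 in a group.

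The difference was positive for the interferon-induced gene Oasl2 (4.08), for the lysosome regulator Lyst (2.09), and for Scnn1a (2.22), Hist1h1c (1.98), Ccpg1 (1.97), Mtus1 (1.90), Hgsnat (1.72), Mbp (1.59), Ltb (1.5), Slc2a3 (1.46), Tmem154 (1.38), Tmem71 (1.33), Itga4 (1.31), Slc40a1 (1.30), Hist1h2bc (1.26), Cxcr4 (1.01), Alox5ap (0.82) and Mmp9 (0.75). It was negative for Thbs1 (-2.93), Cd14 (-2.20), Oasl1 (-2.09), Ifit3 (-2.02), Cxcl2 (-1.77), Lcn2 (-1.74), Socs3 (-1.60), Nr4a1 (-1.54), Nfkbia (-1.43), Il1rn (-1.33), Tlr2 (-1.25), Wfdc21 (-1.12), H2-K1 (-0.95) and G0s2 (-0.92). It was also negative for H2-Ab1 (-3.37), H2-Aa (-2.46) and H2-Eb1 (-2.17), MHC class II genes held by few cells in WT LPS, and for Cpeb4 (-1.75). Thbs1, Cd14, Cxcl2, Oasl1 and Nr4a1 had the largest KO over WT ratios with vehicle. Oasl2, Hist1h1c, Hist1h2bc and Hgsnat were among the smallest. For Cxcl2 the difference between KO and WT under LPS alone did not pass. In Xist-marked cells the 1 gene that passed this test was Xist, which the marks define.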

How the results depend on the processing

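The number of genes called moved by more than 1.5 times under some settings. For LPS against vehicle (5200 calls) it was 2898 with DESeq2, 3058 with cells thinned to 1000 UMIs, 2586 in Xist-marked cells, 2704 with Y-marked KO LPS cells, 2212 with a matched number of these and 1775 in Xist-marked cells without mixed barcodes, and 3540 to 5543 when 1 library was left out. For KO against WT under LPS (1344 calls) it was 339 with DESeq2, 2032 with a Ccl3 and Ccl4 limit of 0.4%, 715 thinned, 17 in Xist-marked cells, 22 without their mixed barcodes, 2316 with Y-marked KO LPS cells and 854 to 2047 with 1 library left out. For the difference in response (189 calls) it was 383 under plain CPM, 100 with DESeq2, 372 with no filter on low counts, 93 and 327 at limits of 0.1% and 0.4%, 78 with the highest doublet scores removed, 1 in Xist-marked cells, 1 without their mixed barcodes, 316 with mixed barcodes removed and 196 to 534 with 1 library left out. The low-count filter, thinning and marks change the genes or cells tested, and otherwise the cause was not tested. With a replicate block on the LPS libraries alone, 919 genes were higher and 921 lower in KO, against 732 and 681 without the block. Same-numbered libraries share only a number, and their deviations from group means correlated at 0.12 over 8263 genes. Of the named genes' values, 1894 kept direction and side of the threshold, 102 no longer passed, 4 newly passed and 17 changed sign. With LPS, G0s2 turned to 0.12 (thinned), 0.018 (doublets removed), 0.20 (mixed barcodes removed) and 0.17 (without KO vehicle, against -0.74 without WT vehicle) and Il1b to -0.13 (plain CPM). For KO against WT in Xist-marked cells G0s2 turned to -0.076, Tnf to -0.054 and Tnip3 to 0.31, and without mixed barcodes Cish to 0.012, Cxcr4 to -0.31, G0s2 to -0.25, Tnf to -0.39 and Tnip3 to 0.60. With Y-marked KO cells Cxcl2 turned to 0.40 (0.33 matched), Isg15 to 0.057 and Nfkbia to 0.069. With 1 vehicle library per genotype and 586187 UMIs in the smaller, low transcripts are least certain there.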
